A study of Homo sapiens with 27 samples.

Results

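The response of A2058 cells to SIRT5 knockdown was followed across the transcriptome. A2058 is a human cell line from a metastatic melanoma. Its 9 RNA-seq libraries, of 27 in the series, fall into 2 knockdown arms and their control. The KD1 and KD2 arms, of 3 libraries each, carried lentiviral short hairpins against SIRT5. The 3 control libraries (NT) carried a hairpin against Gaussia luciferase, an enzyme that human cells lack. All cells were infected for 24 h with polybrene at 8 µg/ml and received puromycin at 1 µg/ml from 48 h. RNA was taken into TRIzol from 3 wells per hairpin at 96 h. The labels number the SIRT5 hairpins, and nothing ties those numbers to KD1 and KD2, so only the arm names are used. The libraries of an arm are wells infected with the same hairpin, and the p-values measure the spread between wells.

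Genes entered the comparison when their FPKM, the authors' read level scaled to depth and transcript length, was at least 1 in 3 of the 9 libraries. This kept 12797 of 26004 deposited genes. Each arm was tested against the control with limma on log2(FPKM + 0.5), and all changes below are on this scale with their SE. A gene is said to have risen or fallen when both arms passed at a Benjamini-Hochberg adjusted p of 0.05 with the same sign. KD1 raised 4946 genes (38.6%) and lowered 4080 (31.9%). KD2 raised 4229 (33%) and lowered 4757 (37.2%). In both arms 2476 genes rose (19.3%) and 2260 fell (17.7%), which makes 4736 genes. Of these, 197 rose and 177 fell by at least 1 log2 unit in each arm. A further 1988 genes (15.5%) passed in both arms with opposite signs. The arms share their control libraries, so a gene that was unusual in the control libraries moves both contrasts together.

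SIRT5 is a sirtuin, an NAD-dependent enzyme of mitochondria and cytosol. Its substrates are lysines that carry acidic acyl groups such as succinyl and malonyl, mostly on metabolic enzymes, and it acts on histones as well. It is studied in melanoma because some lines need it to grow. Sirtuins use NAD and give back nicotinamide, so NAD metabolism, mitochondrial pathways and the lineage genes of pigment cells were among the gene lists examined.

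Depth was 32.2 to 54.5 M reads, recovered from the FPKM, in KD1, 32.6 to 36.6 M in KD2 and 29.3 to 42.1 M in the control libraries. Each of the 9 libraries correlated best with another of its own arm across genes. KD1 libraries detected fewer genes at the FPKM minimum (11667 to 11719) than KD2 (12078 to 12124) and control libraries (12095 to 12114). All 10 melanocytic markers reached an FPKM of 1 in some library. Their summed FPKM was 738 to 807 in KD1, 666 to 709.8 in KD2 and 891 to 917 in the control libraries. SOX10, the transcription factor that defines the melanocyte lineage, stood at 119 to 127 in KD1, 88.8 to 102 in KD2 and 76.3 to 84.9 in the control libraries. Of the markers of other tissues, CDH1 of epithelia, COL1A2 of fibroblasts and CD3E of T cells were the ones under an FPKM of 0.1 in every library. The summed FPKM of the fibroblast markers was 16.4 to 18.4 in KD1, 6.35 to 6.96 in KD2 and 10.4 to 11.7 in the control libraries, most of it LUM, a matrix proteoglycan. The endothelial receptor KDR stood at 0.916 to 1.32 in KD1, 0.412 to 0.501 in KD2 and 0.961 to 1.31 in the control libraries. PECAM1, another endothelial marker, went the other way in KD2, at 0.697 to 0.752. PECAM1 stood at 0.19 to 0.29 in KD1 and 0.085 to 0.128 in the control libraries. The 4 endothelial markers summed to 1.28 to 1.57 in KD1 and 1.25 to 1.305 in KD2. In the control libraries they summed to 1.29 to 1.71. KRT18, a keratin of simple epithelia, stood at 25.02 to 26.4 in KD1, 45.4 to 56.7 in KD2 and 18.9 to 19.96 in the control libraries. KRT8, another keratin, was lower in KD1, at 1.32 to 1.49, beside 2.15 to 2.31 in the control libraries. In KD2 it overlapped the control libraries, at 2.24 to 2.52. The summed FPKM of the 4 immune markers found was 5.34 to 6.54 in KD1, 4.80 to 5.58 in KD2 and 1.88 to 2.83 in the control libraries, most of it LYZ. The immune sum was higher in the knockdown libraries, and the fibroblast sum was higher in KD1 and lower in KD2. The part of these markers in the results was not tested.

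The targeted gene came first. SIRT5 (ENSG00000124523, GRCh38 chromosome 6, 13574227 to 13615158, plus strand) had an FPKM of 0.226, 0.147 and 0.161 in KD1, 0.413, 0.413 and 0.444 in KD2, and 2.36, 2.17 and 1.81 in the control libraries. No knockdown library reached the lowest control library. KD1 kept 8.44% and KD2 20.04% of the control mean, with changes of -1.94 ± 0.14 in KD1 (adjusted p = 4.4e-07) and -1.495 ± 0.14 in KD2 (adjusted p = 3.4e-06). KD2 libraries kept the higher level of SIRT5 (adjusted p of the difference = 0.012). In the authors' deposited table, which sets all knockdown libraries of the line against the control libraries, the log2 fold change of SIRT5 was -2.81. The added 0.5 understates the change of genes as low as this one. The mitochondrial deacetylase gene SIRT3 fell as well, by less, with changes of -0.31 in KD1 and -0.56 in KD2. SIRT6 and SIRT7, which encode nuclear sirtuins, rose. The changes were 0.45 in KD1 and 0.42 in KD2 for SIRT6 and 0.51 in KD1 and 0.25 in KD2 for SIRT7. SIRT1, a nuclear deacetylase, set the arms apart, with an FPKM of 2.14, 1.79 and 2.63 in KD1, 13.3, 12.7 and 12.8 in KD2, and 10.8, 10.9 and 9.36 in the control libraries. It was lower in KD1 and slightly higher in KD2, with changes of -2.02 ± 0.10 in KD1 (adjusted p = 4.6e-08) and 0.31 ± 0.10 in KD2 (adjusted p = 0.019), and is named outside the rule. SIRT2 and SIRT4 did not pass in both arms.

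SERPIND1 (ENSG00000099937, GRCh38 chromosome 22, 20774113 to 20787720, plus strand) encodes heparin cofactor II, a plasma inhibitor of thrombin. Its FPKM was 25.4, 21.5 and 22.8 in KD1, 27.7, 24.5 and 31.7 in KD2, and 2.09, 1.79 and 1.59 in the control libraries. All 6 knockdown libraries stood far above every control library, and the arm means were 12.8 and 15.4 times the control mean, with changes of 3.36 ± 0.10 in KD1 (adjusted p = 2.6e-09) and 3.61 ± 0.10 in KD2 (adjusted p = 3e-09). The gene lies within PI4KA on the other strand, and without strand the reads of both genes cannot be told apart. DUSP5 (ENSG00000138166, GRCh38 chromosome 10, 110497907 to 110511533, plus strand), a nuclear phosphatase that switches off ERK, had an FPKM of 42.0, 40.3 and 41.1 in KD1, 30.9, 27.3 and 34.8 in KD2, and 4.57, 4.61 and 4.001 in the control libraries. The changes of DUSP5 were 3.09 ± 0.08 in KD1 (adjusted p = 1.1e-09) and 2.68 ± 0.08 in KD2 (adjusted p = 3.2e-09). SLC20A1, a sodium-coupled phosphate importer of the cell surface, had an FPKM of 138, 123 and 129.9 in KD1, 101, 95.3 and 106 in KD2, and 21.9, 20.6 and 20.8 in the control libraries. It was the most abundant of the named increases in KD1. The changes of SLC20A1 were 2.60 in KD1 and 2.23 in KD2.

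NT5E (ENSG00000135318, GRCh38 chromosome 6, 85449584 to 85495791, plus strand) encodes CD73, the surface enzyme that makes adenosine from AMP. Its FPKM was 103, 97.0 and 92.5 in KD1, 48.2, 42.1 and 54.5 in KD2, and 10.7, 11.1 and 11.4 in the control libraries. KD1 stood above KD2, and KD2 above the control, in every library, with changes of 3.08 ± 0.08 in KD1 (adjusted p = 1.1e-09) and 2.07 ± 0.08 in KD2 (adjusted p = 1.1e-08). SLC29A1 and SLC29A2, which carry adenosine into cells, fell. Their changes were -0.88 in KD1 and -1.27 in KD2 for SLC29A1 and -1.22 in KD1 and -1.20 in KD2 for SLC29A2. TCN1, a secreted carrier of cobalamin, was the named increase with the largest gap between the arms in favour of KD2. Its FPKM was 16.7, 14.5 and 13.7 in KD1, 54.1, 51.1 and 64.6 in KD2, and 2.77, 3.67 and 3.26 in the control libraries, and the arms differed (adjusted p = 9.5e-08). MYH15, a myosin heavy chain, was near 0 in the control libraries and had an FPKM of 6.65, 6.13 and 5.85 in KD1, 2.77, 2.41 and 3.33 in KD2, and 0.174, 0.145 and 0.169 in the control libraries. MRGPRX4, a G protein-coupled receptor of sensory neurons, had an FPKM of 16.8 ± 1.013 in KD1, 5.67 ± 0.372 in KD2 and 1.24 ± 0.0796 in the control libraries (SD, n = 3 each).

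Several of the other increases encode secreted proteins. IGFBP3, the main carrier of insulin-like growth factors in plasma, had an FPKM of 42.4 ± 4.67 in KD1, 28.6 ± 4.09 in KD2 and 6.43 ± 1.54 in the control libraries. AREG, which encodes amphiregulin, a ligand of the EGF receptor, had an FPKM of 11.9, 12.9 and 13.1 in KD1, 15.4, 13.8 and 18.6 in KD2, and 2.90, 2.75 and 2.96 in the control libraries. The changes of AREG were 1.96 in KD1 and 2.28 in KD2. COL5A3, a chain of type V collagen, changed by 2.01 in KD1 and 2.28 in KD2, and the lipase-related gene PNLIPRP3 by 2.05 in KD1 and 2.29 in KD2. S100A13, a small calcium-binding protein that takes part in the release of growth factors without a signal peptide, changed by 2.25 in KD1 and 1.85 in KD2. S100A1 lies across it on the other strand and rose too, so reads of this pair may be shared.

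Some single genes of mitochondria and translation rose far more than the rest of their families. COX7C (ENSG00000127184, GRCh38 chromosome 5, 86617928 to 86620962, plus strand) encodes a small nuclear subunit of cytochrome c oxidase. Its FPKM was 115, 109 and 113 in KD1, 125, 120.4 and 115 in KD2, and 25.9, 24.5 and 27.3 in the control libraries, with changes of 2.10 ± 0.05 in KD1 (adjusted p = 6.5e-10) and 2.19 ± 0.05 in KD2 (adjusted p = 1.3e-09). The spread within each arm was small beside the gap to the control. Of the 24 cytochrome c oxidase genes tested 4 rose, COX7C among them, and 3 fell. The next largest rise, of COX5B, was 0.43 in KD1 and 0.57 in KD2. MRPS6, a protein of the small subunit of the mitochondrial ribosome, had an FPKM of 55.5, 51.8 and 52.1 in KD1, 34.9, 34.1 and 34.4 in KD2, and 8.61, 8.17 and 8.23 in the control libraries. SLC5A3 lies across MRPS6 on the same strand. EIF4E2, a cap-binding protein that competes with the initiation factor eIF4E, had an FPKM of 15, 14.2 and 14.1 in KD1, 15.7, 15.01 and 15.8 in KD2, and 3.43, 2.92 and 3.60 in the control libraries. The difference between the EIF4E2 arms did not pass (adjusted p = 0.19). COX7C has near-identical pseudogene copies, so its level is uncertain. Over the 15 named increases the smaller arm's change ran from 1.82 to 3.36, and the highest adjusted p in either arm was 9.7e-07 (IGFBP3). The next gene by this order, PBXIP1, stood at 1.77.

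**Figure D1:**
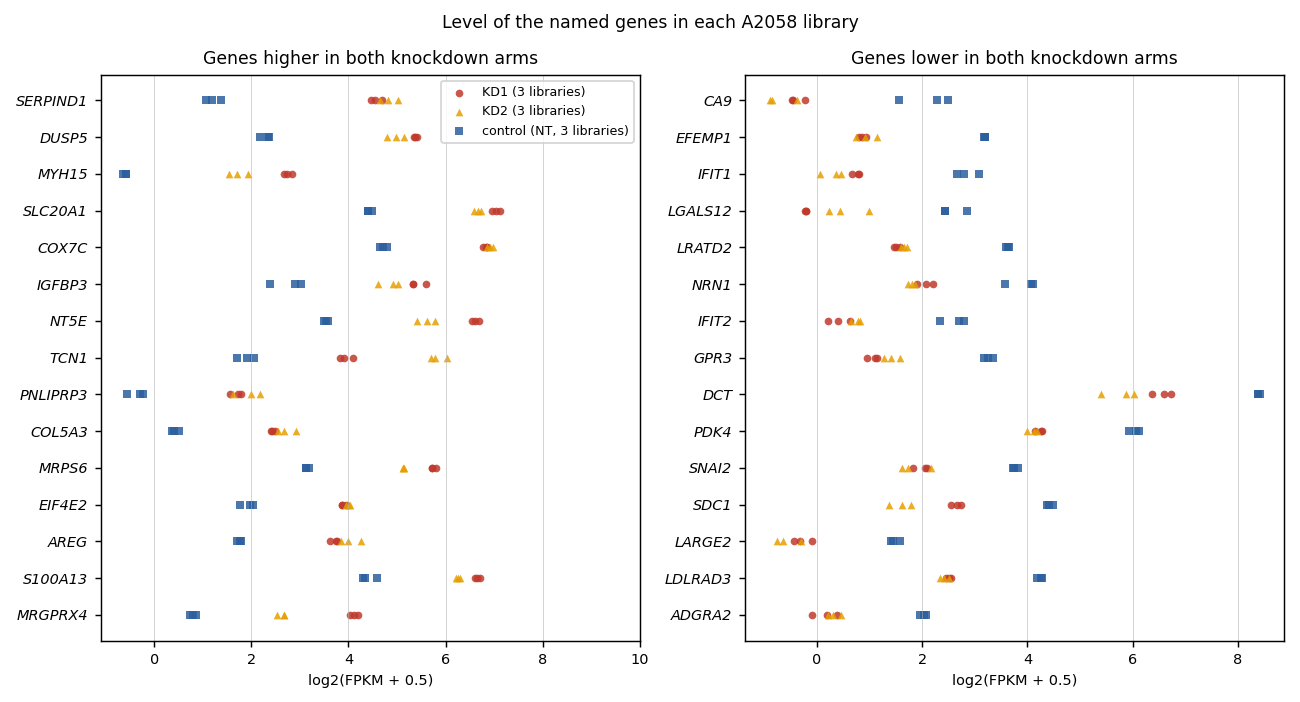
Level of the 15 named increases (left) and 15 named decreases (right) in each A2058 library. Each row is a gene, the horizontal axis is log2(FPKM + 0.5), circles are KD1, triangles KD2 and squares the control libraries (3 libraries each). No row has a knockdown symbol among the control symbols, which the choice of genes required.

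CA9 (ENSG00000107159, GRCh38 chromosome 9, 35673928 to 35681159, plus strand) encodes a carbonic anhydrase of the cell surface and is a classical target of the hypoxia factors. Its FPKM was 0.229, 0.355 and 0.224 in KD1, 0.0541, 0.269 and 0.0357 in KD2, and 5.13, 2.43 and 4.38 in the control libraries. The control libraries varied, and every knockdown library lay far below them. ARHGEF39 lies across CA9 on the other strand. The changes of CA9 were -2.49 ± 0.24 in KD1 (adjusted p = 5.1e-06) and -2.82 ± 0.24 in KD2 (adjusted p = 2.2e-06). EFEMP1, a fibulin of the extracellular matrix, had an FPKM of 1.24, 1.41 and 1.31 in KD1, 1.38, 1.71 and 1.17 in KD2, and 8.62, 8.67 and 8.48 in the control libraries. All 6 knockdown libraries lay close together and far below the control libraries. LGALS12, a galectin, had an FPKM of 0.359 ± 0.00262 in KD1, 1.003 ± 0.423 in KD2 and 5.52 ± 1.06 in the control libraries, and the arms differed (adjusted p = 0.0032). NRN1, which encodes the membrane-anchored growth protein neuritin, had an FPKM of 3.68 ± 0.441 in KD1, 3.00 ± 0.168 in KD2 and 14.9 ± 2.95 in the control libraries.

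PDK4 is a kinase that shuts off pyruvate dehydrogenase and so keeps pyruvate out of the citric acid cycle. Its FPKM was 18.9, 17.2 and 18.7 in KD1, 17, 17.7 and 15.5 in KD2, and 66.7, 68.7 and 60.7 in the control libraries. All 6 knockdown libraries lay close together and below every control library, and the changes were -1.81 ± 0.06 in KD1 (adjusted p = 4.8e-09) and -1.94 ± 0.06 in KD2 (adjusted p = 4.1e-09). GPR3, a receptor that raises cyclic AMP without a ligand, had an FPKM of 1.42, 1.70 and 1.64 in KD1, 2.14, 1.904 and 2.496 in KD2, and 9.70, 9.03 and 8.58 in the control libraries. SDC1, the heparan sulfate proteoglycan syndecan-1, had an FPKM of 6.13, 5.33 and 5.87 in KD1, 2.57, 2.97 and 2.07 in KD2, and 21.95, 20.1 and 20.8 in the control libraries. It was lower in KD2 than in KD1 (adjusted p = 3.4e-06). SDC4, another syndecan, rose, with changes of 1.74 in KD1 and 1.78 in KD2. LARGE2, a glycosyltransferase of dystroglycan, changed by -1.76 in KD1 and -2.05 in KD2, the receptor-like gene LDLRAD3 by -1.74 in KD1 and -1.82 in KD2, the adhesion receptor ADGRA2 by -1.86 in KD1 and -1.69 in KD2 and LRATD2 by -2.11 in KD1 and -1.97 in KD2. Over the 15 named decreases the smaller arm's change ran from 1.69 to 2.49 log2 units in size. The highest adjusted p in either arm was 5.1e-06 (CA9). The next gene, MFSD3, stood at 1.69. The arms differed from each other in 19 of the 30 named genes at an adjusted p of 0.05. Over all genes that rose or fell in both arms they differed in 2970 of 4736, and over all genes tested in 9249 of 12797.

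Pathways were read from 57 gene lists that held 1470 of the genes tested. The share of all genes that rose in both arms, 19.3%, and the share that fell, 17.7%, are the background for each count. The median change over all genes tested was 0.04 in KD1 and -0.03 in KD2. The members that fell were most frequent among genes of mitosis, NAD metabolism and the interferon response. The members that rose were most frequent among the proton pump, coagulation and proteasome genes. Several lists, such as DNA replication, histones and cytosolic ribosomal proteins, moved in opposite directions in the arms and hold few genes that rose or fell in both.

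**Figure D2:**
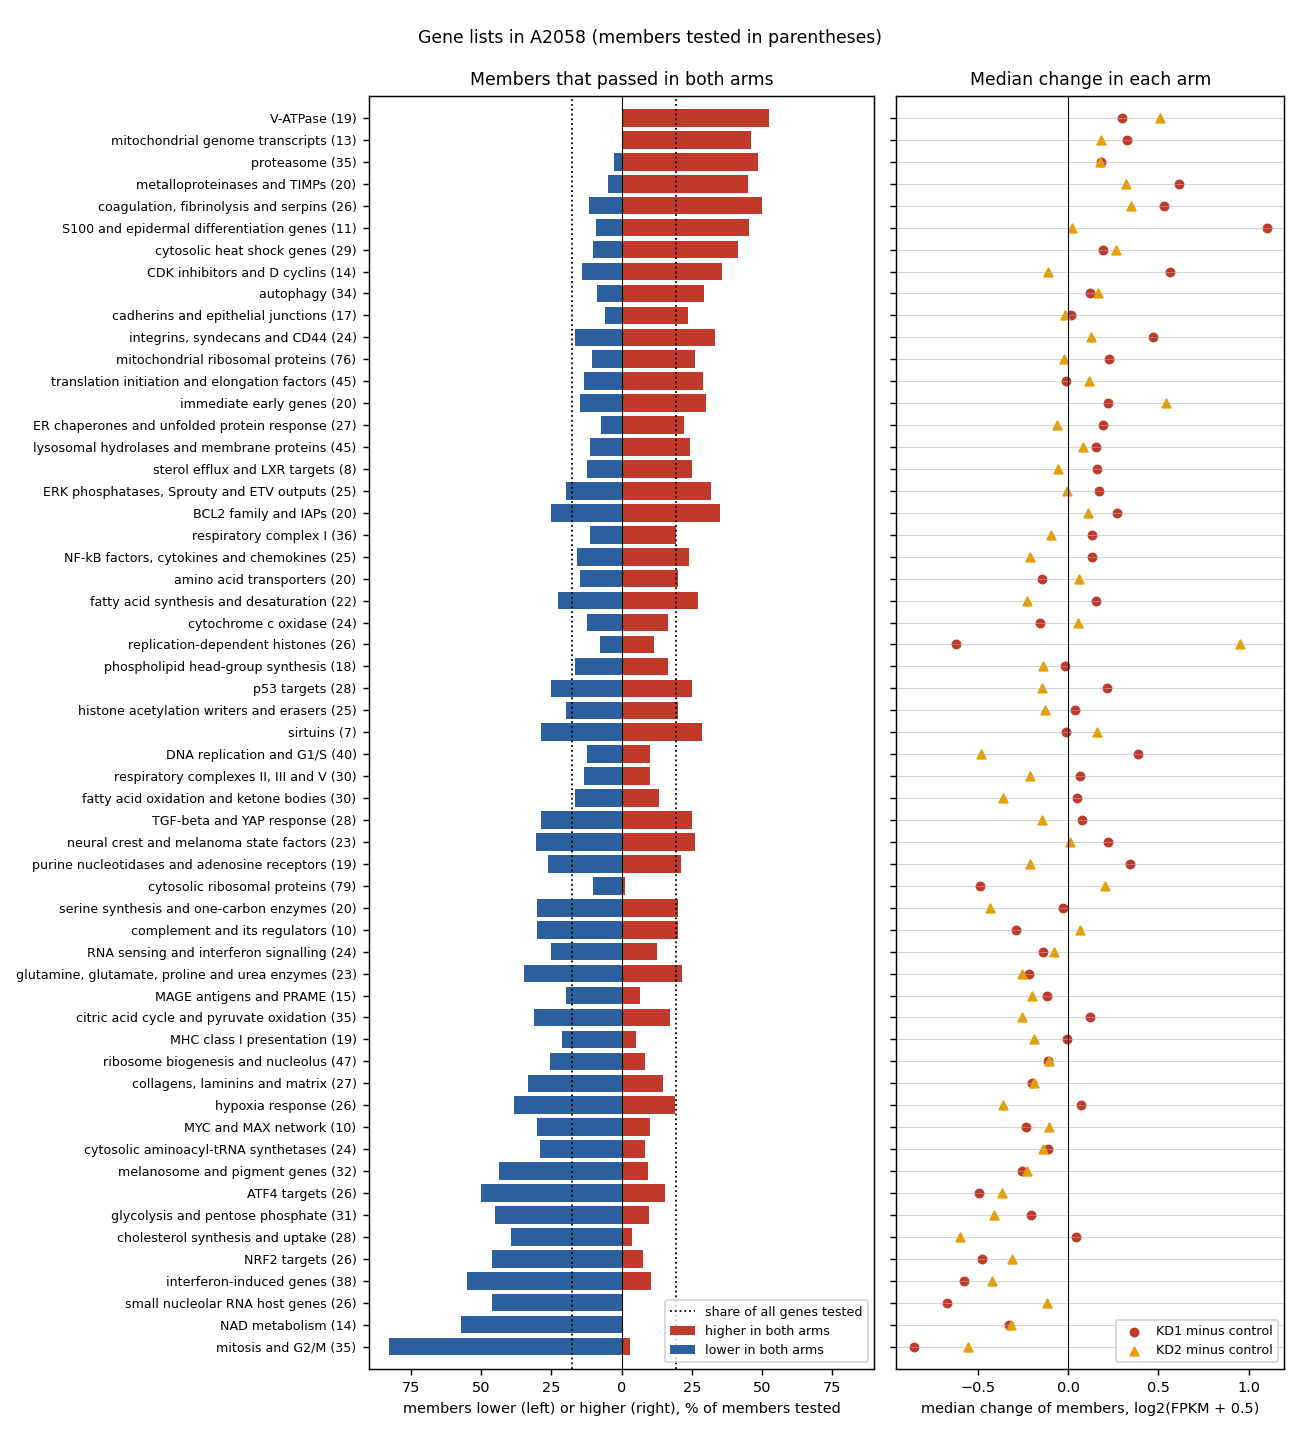
Members of 57 gene lists in A2058. Left, the percent of tested members that fell (blue, leftward) or rose (red, rightward) in both arms, with the share of all genes tested as dotted lines; right, the median change of the members in KD1 (circles) and KD2 (triangles) on the log2(FPKM + 0.5) scale. The G2/M list reaches 82.9% falling, and the histone medians lie at -0.62 in KD1 and 0.95 in KD2.

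Most genes of mitosis fell. Of the list of mitosis and G2/M, 29 of 35 members fell and 1 rose, with medians of -0.86 in KD1 and -0.56 in KD2. AURKA, the kinase that builds the spindle poles, had an FPKM of 13.5, 12.6 and 14.7 in KD1, 15.6, 18.5 and 16.2 in KD2, and 42.1, 46.8 and 45.5 in the control libraries, with changes of -1.69 ± 0.07 in KD1 (adjusted p = 1.7e-08) and -1.39 ± 0.07 in KD2 (adjusted p = 6.7e-08). Every knockdown library lay below every control library. CCNA2, cyclin A, changed by -1.51 in KD1 and -0.95 in KD2. CENPE, a kinesin that brings chromosomes to the spindle equator, changed by -1.28 in KD1 and -1.36 in KD2, the midbody kinesin KIF20A by -1.68 in KD1 and -0.96 in KD2 and the spindle protein DLGAP5 by -1.497 in KD1 and -1.05 in KD2. CDC25B, a phosphatase that opens the way into mitosis, was the member that rose, with an FPKM of 41.1, 43.5 and 42.9 in KD1, 46.8, 40.8 and 46.4 in KD2, and 16.5, 17.8 and 16.4 in the control libraries. The topoisomerase gene TOP2A and the proliferation marker MKI67, named outside the rule, changed by -1.89 in KD1 and -0.90 in KD2 for TOP2A and -1.05 in KD1 and -0.81 in KD2 for MKI67. All of these falling genes but CENPE stood lower in KD1 than in KD2. In bulk RNA, fewer dividing cells and less RNA per dividing cell cannot be told apart.

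Promoters of this list were searched for a sequence pair known from cell cycle genes. The CHR, spelled TTTGAA, is where the DREAM complex and its activating partners bind, and the CCAAT box, spelled CCAAT, is where NF-Y binds. On either strand, TTTGAA was found in 18 of 29 matched promoters (62.1%), against 15.4% of all 27305. CCAAT was found in 23 of 29 (79.3%), against 35.7%. These are letter matches in the 300 bases around each start, not measured binding. The list was drawn from known cell cycle genes, so the shares describe the list and not the response. The promoters of CCNB2, cyclin B, and of PLK1, the kinase of mitotic entry, show the arrangement. Both genes fell, with changes of -1.51 in KD1 and -0.90 in KD2 for CCNB2 and -0.99 in KD1 and -0.58 in KD2 for PLK1. They were chosen for their promoters and lie outside the rule for named genes. Sequences are from RefSeq on GRCh38.p14, in the direction of the gene, with CCAAT and TTTGAA in capitals.
CCNB2 (chr15:59104896-59105195, plus strand): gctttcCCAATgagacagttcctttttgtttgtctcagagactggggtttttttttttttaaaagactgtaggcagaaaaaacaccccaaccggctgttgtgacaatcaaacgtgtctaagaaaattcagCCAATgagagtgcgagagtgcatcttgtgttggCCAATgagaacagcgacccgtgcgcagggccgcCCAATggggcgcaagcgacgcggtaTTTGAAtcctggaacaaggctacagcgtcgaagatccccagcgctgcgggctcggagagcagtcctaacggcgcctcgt
PLK1 (chr16:23678639-23678938, plus strand): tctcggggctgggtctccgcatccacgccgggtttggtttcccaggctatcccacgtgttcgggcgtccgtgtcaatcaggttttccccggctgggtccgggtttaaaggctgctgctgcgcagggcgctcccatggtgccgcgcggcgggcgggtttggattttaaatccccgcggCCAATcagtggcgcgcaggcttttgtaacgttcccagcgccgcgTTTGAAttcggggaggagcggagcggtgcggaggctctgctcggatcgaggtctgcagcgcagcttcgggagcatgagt

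Most of the genes induced by interferon fell. Type I interferon binds its receptor, JAK kinases phosphorylate STAT factors, and these with IRF9 switch on a set of antiviral genes. Of the list of interferon-induced genes, 21 of 38 members fell and 4 rose, with medians of -0.58 in KD1 and -0.42 in KD2. IFIT1 (ENSG00000185745, GRCh38 chromosome 10, 89392546 to 89406487, plus strand), which binds foreign RNA caps, had an FPKM of 1.22, 1.24 and 1.09 in KD1, 0.540, 0.788 and 0.876 in KD2, and 5.84, 8.00 and 6.41 in the control libraries. Its knockdown means were 5.71 times lower in KD1 and 9.18 times lower in KD2, with changes of -2.10 ± 0.13 in KD1 (adjusted p = 2.1e-07) and -2.55 ± 0.13 in KD2 (adjusted p = 5.7e-08). IFIT2, its neighbour and partner, had an FPKM of 0.649, 0.822 and 1.05 in KD1, 1.07, 1.22 and 1.25 in KD2, and 4.59, 6.46 and 5.96 in the control libraries. IFIT3 changed by -1.495 in KD1 and -1.88 in KD2, OAS3, an enzyme that activates RNase L, by -1.44 in KD1 and -1.54 in KD2 and IFI44L by -1.27 in KD1 and -1.92 in KD2. No knockdown library of these genes reached the control range. The IFIT genes lie across LIPA on the other strand.

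ISG20, an exonuclease of the list, rose, with changes of 1.31 in KD1 and 1.58 in KD2. Among the genes that sense RNA and carry the interferon signal, 6 of 24 fell and 3 rose. The sensor IFIH1, known as MDA5, changed by -1.24 in KD1 and -0.92 in KD2 and DHX58 by -0.53 in KD1 and -1.12 in KD2. STING1, the adaptor of DNA sensing, changed by -0.34 in KD1 and -0.75 in KD2, and the RNA-editing enzyme ADAR by -0.43 in KD1 and -0.32 in KD2. The receptor chain IFNAR1 and the kinase JAK1 rose, with changes of 0.82 in KD1 and 0.46 in KD2 for IFNAR1 and 0.47 in KD1 and 0.42 in KD2 for JAK1. The chemokines CXCL10 and CCL5, which interferon induces, fell, with changes of -1.503 in KD1 and -2.18 in KD2 for CXCL10 and -1.06 in KD1 and -0.81 in KD2 for CCL5. Of the antigen presentation list, TAP1, TAP2 and the immunoproteasome genes PSMB8 and PSMB9 fell while HLA-E rose. TAP1, the peptide transporter, changed by -0.73 in KD1 and -1.81 in KD2. The NF-kB list was mixed, with 6 of 25 rising and 4 falling.

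The core of the interferon response element, spelled GAAANNGAA, was found on either strand in 22 of 31 matched promoters of the induced genes (71.0%). All promoters held it in 8.29%. This list too was drawn from known targets, and the match says nothing of the response. IFIT1 and IFIT3 each hold it at 2 places, in capitals here and read on the minus strand of the gene.
IFIT1 (chr10:89392373-89392672, plus strand): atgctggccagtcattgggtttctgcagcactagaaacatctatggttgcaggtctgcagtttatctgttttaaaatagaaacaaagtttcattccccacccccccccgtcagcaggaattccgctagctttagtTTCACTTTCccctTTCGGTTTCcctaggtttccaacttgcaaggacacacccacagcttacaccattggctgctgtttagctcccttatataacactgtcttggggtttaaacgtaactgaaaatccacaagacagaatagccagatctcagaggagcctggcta
IFIT3 (chr10:89327747-89328046, plus strand): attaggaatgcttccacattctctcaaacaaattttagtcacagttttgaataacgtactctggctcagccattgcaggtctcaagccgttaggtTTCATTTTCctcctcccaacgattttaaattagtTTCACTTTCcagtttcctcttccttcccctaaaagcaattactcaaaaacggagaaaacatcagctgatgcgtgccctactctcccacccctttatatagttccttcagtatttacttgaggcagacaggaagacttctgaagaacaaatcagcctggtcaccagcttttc

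MITF and many pigment genes fell, while NGFR, S100B and SOX10 rose. Of the melanosome and pigment list 14 of 32 members fell and 3 rose, with medians of -0.25 in KD1 and -0.23 in KD2. MITF (ENSG00000187098, GRCh38 chromosome 3, 69739456 to 69968336, plus strand), the master regulator of melanocytes, had an FPKM of 13.7, 12.8 and 14.1 in KD1, 17.6, 17.4 and 14.2 in KD2, and 33.0, 37.4 and 35.2 in the control libraries, with changes of -1.35 ± 0.08 in KD1 (adjusted p = 1.4e-07) and -1.09 ± 0.08 in KD2 (adjusted p = 7.6e-07). DCT (ENSG00000080166, GRCh38 chromosome 13, 94436811 to 94479682, minus strand), the melanin enzyme dopachrome tautomerase, had an FPKM of 96.2, 82.1 and 106 in KD1, 57.9, 64.3 and 41.9 in KD2, and 342, 334 and 333 in the control libraries. KD2 was the lower arm for DCT (adjusted p = 0.00035). TYRP1, another melanin enzyme, had an FPKM of 3.84, 3.03 and 3.87 in KD1, 9.46, 9.95 and 9.66 in KD2, and 23.9, 26.6 and 25.8 in the control libraries and was lower in KD1 (adjusted p = 1.3e-07). The channel gene TRPM1, a classical MITF target, changed by -1.68 in KD1 and -1.43 in KD2. The melanosomal transporters changed by -1.01 in KD1 and -1.06 in KD2 for SLC45A2 and -1.55 in KD1 and -0.79 in KD2 for OCA2. TYR, the enzyme that begins melanin synthesis, is named outside the rule, did not pass in both arms with the same sign, and had an FPKM of 162, 148 and 171 in KD1, 129.99, 112 and 114 in KD2, and 119.8, 124 and 126 in the control libraries. PMEL, the fibril protein of melanosomes, fell by less, at 137 to 151 in KD1, 180.2 to 191 in KD2 and 210.4 to 228 in the control libraries.

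Among lineage and state factors, SNAI2 (ENSG00000019549, GRCh38 chromosome 8, 48917598 to 48921740, minus strand), a repressor of the neural crest, had an FPKM of 3.65, 3.02 and 3.75 in KD1, 2.81, 3.97 and 2.57 in KD2, and 12.8, 13.6 and 12.9 in the control libraries. The receptor KIT, which melanocytes need, changed by -1.11 in KD1 and -1.64 in KD2, and the transcription factor TFAP2A by -1.06 in KD1 and -0.91 in KD2. NGFR, a nerve growth factor receptor that marks neural crest-like melanoma cells, had an FPKM of 13.6, 14.2 and 13.9 in KD1, 9.71, 9.78 and 13.2 in KD2, and 5.33, 4.48 and 4.88 in the control libraries, and changed by 1.42 in KD1 and 1.07 in KD2. MET, the receptor of hepatocyte growth factor, changed by 1.42 in KD1 and 0.99 in KD2. SOX10, an activator of MITF in melanocytes, changed by 0.59 in KD1 and 0.23 in KD2. S100B, a glial and melanoma marker, had an FPKM of 245, 219.9 and 227 in KD1, 189.6, 189.9 and 196 in KD2, and 68.4, 69.5 and 71.3 in the control libraries. In total 6 of 23 such factors rose and 7 fell, so that list had no single direction.

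**Figure D3:**
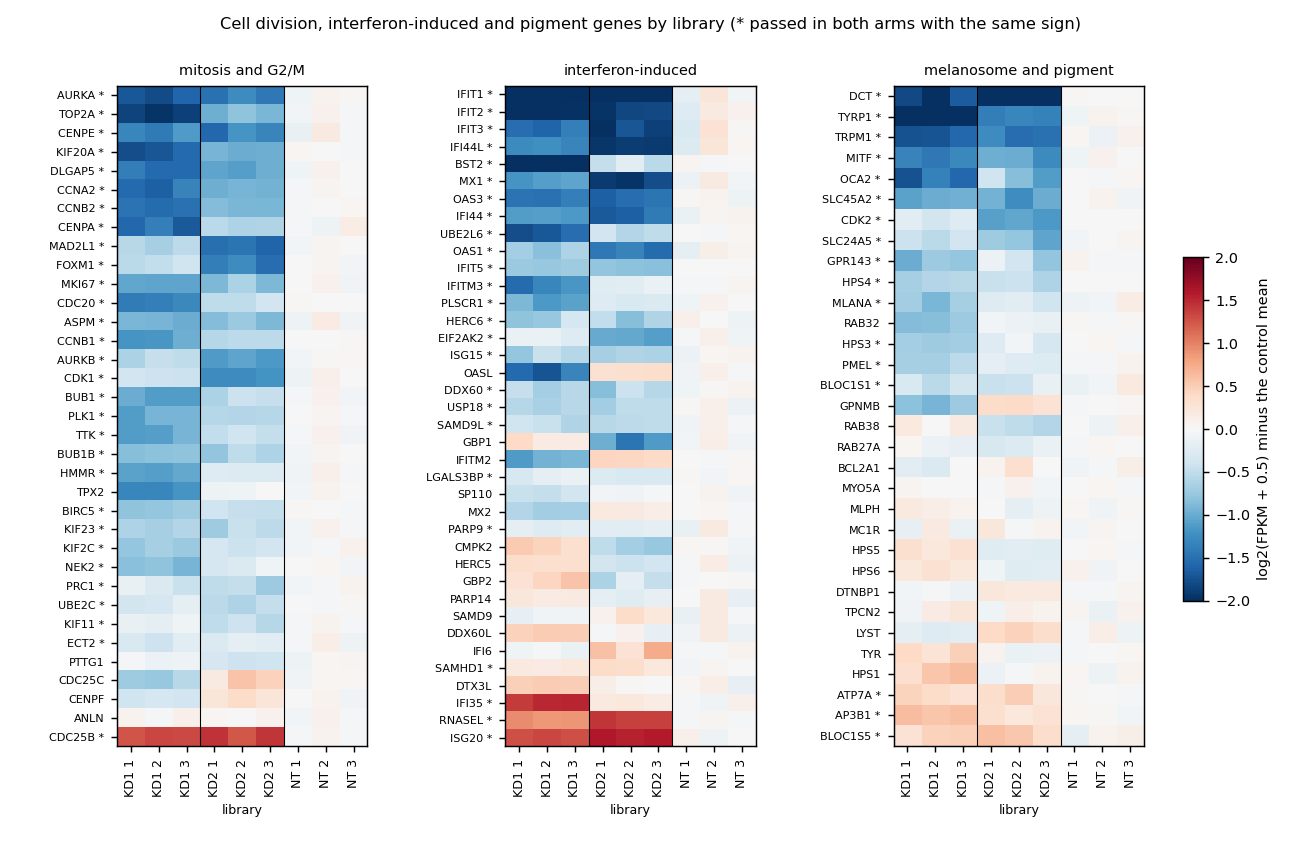
Members of 3 gene lists in each A2058 library, as log2(FPKM + 0.5) minus the mean of the 3 control libraries (colour, limited to -2 and 2). Columns are KD1, KD2 and control libraries, rows are genes ordered by their mean change, and a star marks genes that passed in both arms with the same sign. Of the G2/M list 29 of 35 rows, of the interferon list 21 of 38 and of the pigment list 14 of 32 are starred as lower.

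ATF4 and its targets in amino acid supply and stress fell in large part. ATF4 is the transcription factor that cells make when amino acids run short or the endoplasmic reticulum is stressed. Of the list of its targets, in which ATF4 is counted too, 13 of 26 members fell and 4 rose. The medians were -0.49 in KD1 and -0.37 in KD2. ATF4 itself had an FPKM of 54.2, 53.7 and 52.0 in KD1, 57.4, 56.7 and 60.1 in KD2, and 111, 106 and 117 in the control libraries, with changes of -1.05 ± 0.04 in KD1 (adjusted p = 1.4e-08) and -0.93 ± 0.04 in KD2 (adjusted p = 3.7e-08). The stress protein NUPR1 had an FPKM of 0.0669, 0.0744 and 0.111 in KD1, 0.111, 0.0969 and 0.0573 in KD2, and 1.204, 1.13 and 1.18 in the control libraries. The secreted glycoprotein STC2 changed by -1.45 in KD1 and -1.13 in KD2. SLC7A5, the importer of large neutral amino acids, changed by -1.29 in KD1 and -0.93 in KD2, and SLC7A1, the importer of arginine and lysine, by -0.60 in KD1 and -2.25 in KD2. ATF5, a related factor, rose, with changes of 0.77 in KD1 and 1.70 in KD2. NUP62 lies across ATF5 on the other strand.

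Enzymes that make serine and feed the folate cycle followed in part. Of the serine synthesis pathway, PSAT1 changed by -1.003 in KD1 and -1.45 in KD2, PSPH by -0.52 in KD1 and -1.08 in KD2 and PHGDH, outside the rule, by -0.27 in KD1 and -0.96 in KD2. MTHFD1L, a mitochondrial folate enzyme, changed by -1.78 in KD1 and -0.90 in KD2. MTHFD2, another such enzyme, rose, with changes of 0.44 in KD1 and 0.71 in KD2. Of the cytosolic aminoacyl-tRNA synthetases, which load amino acids onto tRNA, 7 of 24 fell and 2 rose. AARS1 changed by -0.58 in KD1 and -1.32 in KD2. Of the glutamine, proline and polyamine enzymes 8 of 23 fell and 5 rose. The glutamine synthetase GLUL changed by -0.83 in KD1 and -0.60 in KD2, and ODC1, the first enzyme of polyamine synthesis, by 1.05 in KD1 and 1.22 in KD2.

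Genes of NAD metabolism fell where they passed in both arms with the same sign. The list holds genes that make NAD and genes that break it. Of 14 genes 8 fell and 0 rose, with medians of -0.33 in KD1 and -0.32 in KD2. By single arm, KD2 raised 5 of the 14 and KD1 raised 0. NAMPT, NMNAT1 and NMRK1 did not pass in both arms. NNT, the transhydrogenase that makes NADPH in mitochondria, had an FPKM of 16.4, 15.7 and 16.9 in KD1, 15.4, 15.3 and 12.8 in KD2, and 37.0, 38.5 and 36.4 in the control libraries, with changes of -1.17 ± 0.07 in KD1 (adjusted p = 1.1e-07) and -1.34 ± 0.07 in KD2 (adjusted p = 4.8e-08). NADK2, the mitochondrial NAD kinase, had an FPKM of 4.56, 4.56 and 4.19 in KD1, 2.99, 2.51 and 3.10 in KD2, and 6.23, 7.19 and 5.55 in the control libraries. The groups of both genes did not overlap. BST1, an ectoenzyme that breaks NAD, changed by -0.48 in KD1 and -1.01 in KD2. NAPRT and QPRT, which make NAD from nicotinic and quinolinic acid, changed by -0.58 in KD1 and -0.54 in KD2 for NAPRT and -0.34 in KD1 and -0.86 in KD2 for QPRT. NNMT, which removes nicotinamide by methylation, lies outside the rule and went opposite ways in the arms. Its FPKM was 1.69, 1.35 and 1.55 in KD1, 44.2, 46.9 and 46.1 in KD2, and 17.05, 15.8 and 17.8 in the control libraries. SKP2 lies across NADK2 on the other strand, and an antisense gene across NNT.

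Antioxidant genes under NRF2 fell in large part. Of the list 12 of 26 members fell and 2 rose, with medians of -0.48 in KD1 and -0.31 in KD2. NQO1, a quinone reductase, had an FPKM of 125, 116 and 132 in KD1, 132, 133 and 128 in KD2, and 323, 323 and 324 in the control libraries, with changes of -1.38 ± 0.05 in KD1 (adjusted p = 3.4e-09) and -1.30 ± 0.05 in KD2 (adjusted p = 5.9e-09). GCLM, a subunit of the enzyme that begins glutathione synthesis, changed by -0.93 in KD1 and -1.12 in KD2. The iron store FTL changed by -0.90 in KD1 and -1.01 in KD2, and the malic enzyme ME1 by -0.70 in KD1 and -1.11 in KD2. HMOX1, heme oxygenase, rose, with changes of 0.91 in KD1 and 1.25 in KD2. KEAP1, the repressor of NRF2, is named outside the rule and rose too, with changes of 0.85 in KD1 and 0.66 in KD2.

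**Figure D4:**
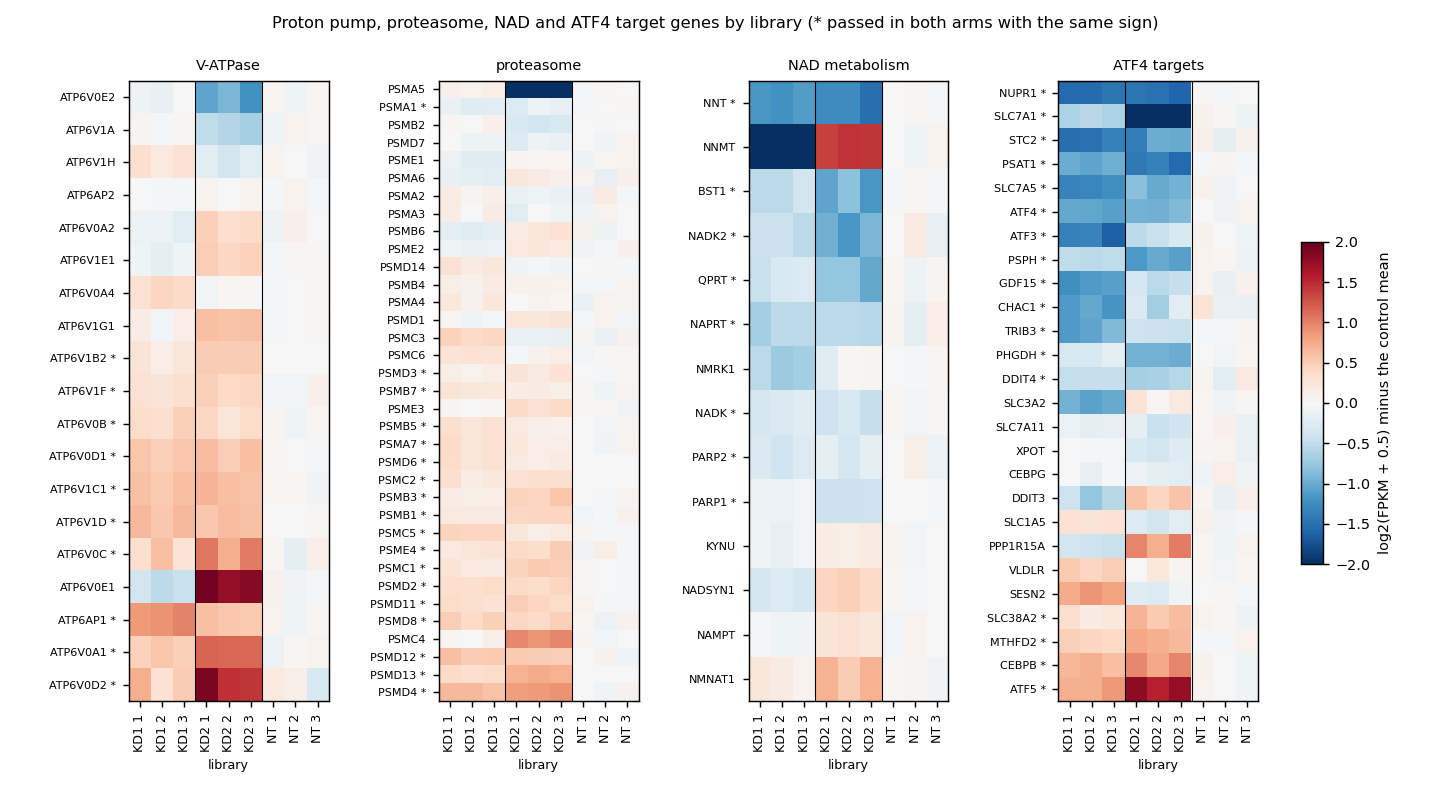
Members of the V-ATPase, proteasome, NAD metabolism and ATF4 target lists in each A2058 library, as log2(FPKM + 0.5) minus the control mean (colour, limited to -2 and 2). Columns are KD1, KD2 and control libraries and a star marks genes that passed in both arms with the same sign. The V-ATPase panel has 10 starred rows, all higher, and the NAD panel 8, all lower, while NNMT is blue in KD1 and red in KD2.

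Part of the genes of sugar metabolism fell. Of the glycolysis and pentose phosphate genes 14 of 31 members fell and 3 rose, with medians of -0.20 in KD1 and -0.41 in KD2. ALDOC, an aldolase, had an FPKM of 1.39, 1.59 and 1.81 in KD1, 0.344, 0.789 and 0.483 in KD2, and 6.08, 4.39 and 6.76 in the control libraries. The glucose transporter SLC2A1 changed by -0.87 in KD1 and -0.52 in KD2 and PGK1, a kinase that yields ATP, by -0.59 in KD1 and -0.70 in KD2. Of the pentose phosphate pathway PGD changed by -0.57 in KD1 and -1.15 in KD2 and TALDO1 by -0.48 in KD1 and -0.51 in KD2. Several of these are also hypoxia genes, and of the hypoxia list 10 of 26 fell and 5 rose. BNIP3, a mitophagy receptor of that list, changed by -0.66 in KD1 and -0.66 in KD2, and ANGPTL4, a lipase inhibitor, by 0.94 in KD1 and 0.85 in KD2.

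In the citric acid cycle and around pyruvate 11 of 35 members fell and 6 rose. IDH1, the cytosolic isocitrate dehydrogenase, had an FPKM of 21.6, 18.9 and 19.5 in KD1, 13.04, 13.8 and 13.3 in KD2, and 35.0, 37.2 and 34.9 in the control libraries. PCK2, the mitochondrial carboxykinase, changed by -1.24 in KD1 and -1.17 in KD2. DLAT, the core of pyruvate dehydrogenase, changed by -0.85 in KD1 and -0.91 in KD2, and SUCLG2, of the ligase that uses up succinyl-CoA in the cycle, by -0.89 in KD1 and -0.58 in KD2. PDK1, a paralog of PDK4, changed by -0.55 in KD1 and -0.91 in KD2. In fatty acid oxidation 5 of 30 fell and 4 rose, both shares under the background. PPARGC1A, a coactivator of mitochondrial genes that MITF controls, had an FPKM of 0.6248, 0.742 and 0.843 in KD1, 1.35, 1.83 and 1.303 in KD2, and 3.06, 3.12 and 2.81 in the control libraries. Its groups did not overlap, with changes of -1.502 in KD1 and -0.82 in KD2.

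The cholesterol genes were split by arm. Of the cholesterol genes 11 of 28 members fell and 1 rose in both arms, but 22 fell in KD2 and 11 in KD1, where 8 rose. The medians were 0.04 in KD1 and -0.60 in KD2, and quantile normalization turned the KD1 median to -0.16. SQLE, an oxygenase that limits the rate of sterol synthesis, had an FPKM of 5.72, 6.12 and 6.31 in KD1, 6.79, 7.22 and 7.68 in KD2, and 15.9, 17.01 and 15.1 in the control libraries, with changes of -1.33 ± 0.06 in KD1 (adjusted p = 3.1e-08) and -1.09 ± 0.06 in KD2 (adjusted p = 1.3e-07). The acetyl-CoA enzyme ACAT2 changed by -0.34 in KD1 and -1.53 in KD2. SCD, the desaturase that makes oleate, had an FPKM of 109, 116 and 124 in KD1, 58.7, 65.2 and 51.8 in KD2, and 281, 275 and 269.7 in the control libraries. FADS2, another desaturase, changed by -1.27 in KD1 and -0.92 in KD2, and ACSL4, which activates arachidonate, by 0.79 in KD1 and 1.012 in KD2. The ethanolamine kinase ETNK2 was the largest change of the phospholipid list, at -2.17 in KD1 and -1.48 in KD2.

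Transcripts of the mitochondrial genome were slightly higher, and ribosomal protein genes differed by arm. Of the 13 transcripts of the mitochondrial genome 6 rose and 0 fell, with medians of 0.32 in KD1 and 0.18 in KD2. MT-ND5, a subunit of complex I, changed by 0.44 in KD1 and 0.30 in KD2 and MT-CO1, of complex IV, by 0.14 in KD1 and 0.22 in KD2. Mitochondrial reads made up 10.2 to 10.6% of the reads in KD1, 10.8 to 11.1% in KD2 and 9.87 to 10.7% in the control libraries. Of the nuclear genes of complex I 7 of 36 rose and 4 fell, with the rising share near the background. Of 76 mitochondrial ribosomal proteins 20 rose and 8 fell. MRPL18 changed by 1.37 in KD1 and 1.04 in KD2 and MRPL1 by -1.24 in KD1 and -0.83 in KD2, both parts of the large subunit.

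Of 79 cytosolic ribosomal proteins 8 fell, 1 rose and 45 passed with opposite signs, lower in KD1 and higher in KD2 in most. RPL14 changed by -0.69 in KD1 and -1.80 in KD2. Of the ribosome assembly genes 12 of 47 members fell and 4 rose. NOLC1, a nucleolar phosphoprotein, changed by -1.08 in KD1 and -1.30 in KD2, and PA2G4, an RNA-binding growth regulator, by -0.95 in KD1 and -1.99 in KD2. MYC, which drives this programme, changed by -0.83 in KD1 and -0.28 in KD2. The host genes of small nucleolar RNAs, whose introns carry those RNAs, fell in both arms in 12 of 26 cases with 0 rising. The arms differed, with 23 falling and 0 rising in KD1 and 12 falling and 5 rising in KD2. The medians were -0.67 in KD1 and -0.12 in KD2. SNHG12 changed by -0.76 in KD1 and -0.88 in KD2 and SNHG1 by -0.94 in KD1 and -0.59 in KD2.

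Genes of the lysosomal proton pump rose. The V-ATPase pumps protons into lysosomes and melanosomes. Of its genes 10 of 19 members rose and 0 fell, with medians of 0.30 in KD1 and 0.51 in KD2. ATP6V1D, of the cytosolic part, had an FPKM of 30.1, 28.0 and 29.9 in KD1, 27.9, 29.3 and 28.7 in KD2, and 18.8, 18.9 and 19.3 in the control libraries, with changes of 0.61 ± 0.04 in KD1 (adjusted p = 3.7e-07) and 0.58 ± 0.04 in KD2 (adjusted p = 6.4e-07). ATP6V0D1, of the membrane part, had an FPKM of 16.1, 15.1 and 15.96 in KD1, 16.8, 15.4 and 16.7 in KD2, and 11.1, 10.7 and 10.6 in the control libraries. ATP6AP1, an accessory subunit, changed by 0.92 in KD1 and 0.56 in KD2. Of the lysosomal enzymes and membrane proteins 11 of 45 members rose and 5 fell in both arms. The cholesterol exporter NPC1 changed by 1.07 in KD1 and 0.77 in KD2, while the glucosidase GAA changed by -0.36 in KD1 and -2.15 in KD2. Of the autophagy genes 10 of 34 members rose and 3 fell. ATG101, of the initiation complex, changed by 1.71 in KD1 and 1.47 in KD2, and its partner ATG13 by -0.67 in KD1 and -1.02 in KD2.

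Many proteasome genes rose by little. Of 35 genes 17 rose, 1 fell and 2 passed with opposite signs, with medians of 0.18 in KD1 and 0.18 in KD2. PSMD4, a receptor for ubiquitin in the cap of the proteasome, had an FPKM of 65.0, 65.3 and 62.0 in KD1, 74.4, 75.4 and 77.4 in KD2, and 41.3, 39.1 and 44.1 in the control libraries. PSMD12, of the same cap, changed by 0.55 in KD1 and 0.51 in KD2. Of the cytosolic heat shock genes 12 of 29 members rose and 3 fell. HSPA6, a strictly inducible chaperone, had an FPKM of 7.09, 7.32 and 6.06 in KD1, 54.6, 46.1 and 63.8 in KD2, and 1.83, 2.40 and 1.38 in the control libraries and was far higher in KD2. The stress-induced chaperones HSPA1A and HSPA1B changed by 0.60 in KD1 and 1.76 in KD2 for HSPA1A and 0.81 in KD1 and 1.71 in KD2 for HSPA1B. These 3 genes share most of their sequence with copies, and their levels are uncertain. The mitochondrial chaperone HSPD1 changed by -0.56 in KD1 and -0.77 in KD2.

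Outputs of growth factor signalling did not share a direction. Of the ERK phosphatases, Sprouty and ETV genes 8 of 25 members rose and 5 fell. Besides DUSP5, the phosphatase DUSP6 changed by 1.16 in KD1 and 0.72 in KD2 and SPRY4, an inhibitor of receptor signalling, by 1.54 in KD1 and 0.95 in KD2. DUSP9 changed by -1.24 in KD1 and -1.09 in KD2 and TRIB2 by -0.95 in KD1 and -1.20 in KD2. Of the immediate early genes 6 of 20 members rose and 3 fell. EGR3 had an FPKM of 8.38, 8.00 and 7.85 in KD1, 8.48, 6.61 and 7.94 in KD2, and 3.25, 2.77 and 2.49 in the control libraries, while SRF, which drives such genes, changed by -0.90 in KD1 and -1.95 in KD2. Of the TGF-beta and YAP genes 7 of 28 members rose and 8 fell. CRIM1, a membrane protein that binds growth factors, changed by -1.61 in KD1 and -1.25 in KD2.

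Among metalloproteinases and genes of clotting, more members rose than fell. Of the metalloproteinases and TIMPs 9 of 20 members rose and 1 fell, with medians of 0.62 in KD1 and 0.32 in KD2. MMP15, a membrane-bound metalloproteinase, had an FPKM of 29.7, 32.2 and 34.4 in KD1, 6.52, 5.57 and 6.21 in KD2, and 2.05, 2.74 and 2.78 in the control libraries. ADAM19, a sheddase, changed by 2.32 in KD1 and 1.21 in KD2 and the stromelysin MMP10 by 1.17 in KD1 and 1.27 in KD2. MMP2, a gelatinase, was the member that fell, with an FPKM of 9.59, 10.4 and 10.3 in KD1, 5.77, 5.26 and 5.66 in KD2, and 19.9, 20.9 and 20.5 in the control libraries. Of the coagulation, fibrinolysis and serpin genes 13 of 26 members rose and 3 fell, with medians of 0.53 in KD1 and 0.35 in KD2. PLAUR, the urokinase receptor, had an FPKM of 33.5, 32.8 and 33.5 in KD1, 37.1, 34.9 and 43.0 in KD2, and 13.2, 14.04 and 13.4 in the control libraries. The junction protein F11R changed by 2.10 in KD1 and 1.41 in KD2 and SERPINB9, an inhibitor of granzyme B, by -0.80 in KD1 and -0.78 in KD2.

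Surface and matrix genes changed both ways. Of the integrins and syndecans 8 of 24 members rose and 4 fell, with ITGB3 at 2.89 in KD1 and 0.95 in KD2 and ITGB5 at -1.86 in KD1 and -0.95 in KD2. Both are beta chains that pair with the alpha V integrin. Of the collagens, laminins and matrix genes 9 of 27 members fell and 4 rose. LAMB3, a laminin chain, changed by 1.44 in KD1 and 1.45 in KD2. CLDN4 and CLDN1, of tight junctions, went apart, with changes of 2.27 in KD1 and 1.18 in KD2 for CLDN4 and -1.97 in KD1 and -1.54 in KD2 for CLDN1. The claudins thus moved against each other in both arms.

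Further lists held single genes with large changes. Of the S100 and epidermal genes 5 of 11 members rose and 1 fell. S100A16 changed by 1.46 in KD1 and 1.37 in KD2 and S100A6 by 0.93 in KD1 and 0.91 in KD2, both calcium-binding proteins, while S100A11, of the same family, changed by -0.32 in KD1 and -0.46 in KD2. Of the complement genes 3 of 10 members fell and 2 rose. The protease C1R changed by -1.21 in KD1 and -0.36 in KD2 and CD55, which shields cells from complement, by 0.44 in KD1 and 1.10 in KD2. Of the amino acid transporters 4 of 20 members rose and 3 fell. SLC1A1, a carrier of glutamate and aspartate, changed by 0.90 in KD1 and 1.26 in KD2, SLC38A1, a carrier of glutamine, by -1.06 in KD1 and -0.94 in KD2 and SLC38A9, the arginine sensor of the lysosome, by 1.04 in KD1 and 0.94 in KD2. Of the translation factors 13 of 45 members rose and 6 fell, a larger share than the background for rising. EIF5 changed by 0.67 in KD1 and 0.65 in KD2, and EEF2K, the kinase that slows elongation, by -0.85 in KD1 and -1.25 in KD2.

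In the purine list NT5E had company in both directions. ADORA1, a receptor for adenosine, changed by -1.51 in KD1 and -0.44 in KD2 and P2RY1, a receptor for ADP, by 1.08 in KD1 and 0.41 in KD2. Among regulators of histone acetylation 5 of 25 rose and 5 fell, close to the background shares. The deacetylases HDAC11 and HDAC6 changed by -1.01 in KD1 and -0.72 in KD2 for HDAC11 and -0.87 in KD1 and -0.75 in KD2 for HDAC6, while HDAC5 changed by 0.97 in KD1 and 0.55 in KD2. In the network around MYC, its antagonist MXD1 had an FPKM of 3.61, 2.99 and 2.73 in KD1, 5.58, 5.59 and 5.63 in KD2, and 0.910, 0.985 and 0.930 in the control libraries. MXD1 was higher in every knockdown library, with changes of 1.32 ± 0.09 in KD1 (adjusted p = 3.3e-07) and 2.08 ± 0.09 in KD2 (adjusted p = 1.7e-08). Of the chaperones of the endoplasmic reticulum 6 of 27 members rose and 2 fell, with DNAJB9 at 1.013 in KD1 and 0.93 in KD2, and 11 passed with opposite signs. ACAT1, which splits acetoacetyl-CoA in mitochondria, changed by -1.65 in KD1 and -0.59 in KD2, and SLC25A20, which carries acylcarnitines across the inner membrane, by 0.78 in KD1 and 1.07 in KD2. Of the cancer-testis genes 3 of 15 members fell and 1 rose, with MAGEF1 at -1.25 in KD1 and -0.82 in KD2.

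LATS2, a kinase that restrains YAP, changed by 1.15 in KD1 and 1.93 in KD2, and INHBA, the chain of activin A, by 1.46 in KD1 and 0.73 in KD2. ITGB8, the integrin chain that frees latent TGF-beta, changed by 1.49 in KD1 and 0.85 in KD2, and ITGA10, a collagen receptor, by 2.55 in KD1 and 0.82 in KD2. NR4A3, a nuclear receptor among the immediate early genes, had an FPKM of 0.311, 0.172 and 0.153 in KD1, 1.41, 1.93 and 1.86 in KD2, and 3.80, 4.05 and 3.35 in the control libraries, and KLF4, a factor of growth arrest, changed by 1.008 in KD1 and 1.16 in KD2. NR4A3 thus fell while EGR3 and KLF4 rose. ADAM10, the main sheddase of Notch, changed by 0.71 in KD1 and 0.72 in KD2. RELB, of the NF-kB family, changed by 0.65 in KD1 and 0.58 in KD2, and CSF1, a growth factor of macrophages, by -1.002 in KD1 and -0.61 in KD2.

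Growth arrest and survival genes were mixed. CDKN2B, an inhibitor of the kinases CDK4 and CDK6, had an FPKM of 107, 102 and 98.6 in KD1, 33.8, 29.0 and 37.3 in KD2, and 18.4, 17.2 and 17.4 in the control libraries, with changes of 2.501 ± 0.08 in KD1 (adjusted p = 2.5e-09) and 0.89 ± 0.08 in KD2 (adjusted p = 2.5e-06). CDK6 rose too, with changes of 2.59 in KD1 and 1.07 in KD2. Both genes were higher in KD1 than in KD2. Of the p53 targets 7 of 28 members rose and 7 fell. The nuclease AEN changed by 1.18 in KD1 and 1.28 in KD2 and the death receptor TNFRSF10B by 0.61 in KD1 and 0.78 in KD2, while the cyclins changed by -0.83 in KD1 and -0.63 in KD2 for CCNG1 and -1.31 in KD1 and -1.43 in KD2 for CCNG2. Of the BCL2 family and IAPs 7 of 20 members rose and 5 fell. MCL1, which holds off cell death, changed by 0.67 in KD1 and 1.47 in KD2, and BIRC3, which does so too, by 0.78 in KD1 and 1.85 in KD2. BCL2L1, of the same function, changed by -1.01 in KD1 and -1.26 in KD2. The death inducers changed by -0.85 in KD1 and -0.68 in KD2 for BMF and -0.64 in KD1 and -0.59 in KD2 for PMAIP1.

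The genes with opposite signs are no part of the shared response, and 4 of them show how far the arms differ. CDKN1A, the p21 inhibitor of cell division, had an FPKM of 164, 159 and 151 in KD1, 13.4, 11.7 and 15.7 in KD2, and 45.3, 42.6 and 43.9 in the control libraries. SPRR2D, an epidermal protein with close copies, had an FPKM of 65.4, 65.7 and 69.6 in KD1, 2.48, 2.51 and 3.65 in KD2, and 16.6, 20.1 and 14.3 in the control libraries. UTS2, the peptide urotensin, had an FPKM of 1.24, 0.965 and 1.58 in KD1, 46.2, 52.3 and 28.2 in KD2, and 11.9, 11.6 and 13.3 in the control libraries. RASD1, a small GTPase, had an FPKM of 1.27, 1.48 and 2.23 in KD1, 19.4, 19 and 24.6 in KD2, and 5.49, 5.29 and 4.97 in the control libraries. KD1 was above and KD2 below the control for CDKN1A and SPRR2D, and the reverse held for UTS2 and RASD1. Of the DNA replication and G1/S genes 28 of 40 rose in KD1 and 33 fell in KD2. Of the histone genes 17 of 26 fell in KD1 and 19 rose in KD2. Reads of histone copies may be shared among them.

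The A2058 effect was tested against the mean effect in the A375 and SKMEL2 lines, in a fit over all 27 libraries. A gene can pass this test although either line matches A2058, so passing does not make a change particular to A2058. SERPIND1 had effects of 3.49 in A2058, 3.56 in A375 and 0.80 in SKMEL2 (adjusted p of the difference = 3.8e-07). CA9 had effects of -2.66 in A2058, -3.12 in A375 and -0.06 in SKMEL2 (adjusted p = 0.00037). Of the 4736 genes that rose or fell in both arms, 2562 (54.1%) differed from the mean of the other lines, beside 37.7% of all 16162 genes tested. Those genes were chosen for a change in A2058, so the larger share is a description. Of the rising genes 1236 of 2476 had a higher effect in A2058, and of the falling genes 1212 of 2260 a lower one.

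EGR3, a growth-induced transcription factor, rose in A2058 and was lower after knockdown in the other lines. Its mean knockdown effects were 1.33 ± 0.09 in A2058, -1.098 ± 0.09 in A375 and -1.03 ± 0.09 in SKMEL2, a difference of 2.40 ± 0.12 (adjusted p = 1e-11). TIMP1, an inhibitor of metalloproteinases, had effects of 1.05 ± 0.09 in A2058, -1.70 ± 0.09 in A375 and -0.39 ± 0.09 in SKMEL2, a difference of 2.10 ± 0.11 (adjusted p = 1.8e-11). SLC20A1 and TCN1 were higher in all lines but by more in A2058, with differences of 1.21 ± 0.06 (adjusted p = 1.5e-11) and 1.86 ± 0.11 (adjusted p = 5.5e-11). The difference for CDKN2B was 1.302 ± 0.07 (adjusted p = 5.5e-11) and CDKN2B was listed at 0 in every A375 library. GPAT3, which begins glycerolipid synthesis, had effects of 1.23 ± 0.06 in A2058, -0.64 ± 0.06 in A375 and 0.71 ± 0.06 in SKMEL2, a difference of 1.19 ± 0.07 (adjusted p = 5.5e-11).

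NRN1 fell in A2058 and was higher after knockdown in A375, with effects of -1.99 ± 0.10 in A2058, 1.15 ± 0.10 in A375 and -0.34 ± 0.10 in SKMEL2 and a difference of -2.39 ± 0.13 (adjusted p = 3.2e-11). MAPK4, an atypical MAP kinase, had effects of -1.43 ± 0.07 in A2058, 0.82 ± 0.07 in A375 and -0.14 ± 0.07 in SKMEL2, a difference of -1.76 ± 0.09 (adjusted p = 1.9e-11). MT2A, a metallothionein with close copies, had an FPKM of 41.9, 48.0 and 50.1 in KD1, 47.7, 47.2 and 51.1 in KD2, and 158, 149 and 166 in the control libraries in A2058 and a difference of -1.66 ± 0.10 (adjusted p = 1e-10). PTGIS, the prostacyclin synthase, ASB4 and PRSS56 had mean FPKM near 0 in the other lines, and their differences were -1.35 ± 0.08 (adjusted p = 5.5e-11), -1.56 ± 0.09 (adjusted p = 6.7e-11) and -1.71 ± 0.10 (adjusted p = 1.3e-10). The A2058 effect is the mean of both arms, so a list whose arms oppose each other enters by that mean. The share of all genes tested that differed either way, 37.7%, is the background. Among the lists, the cytosolic ribosomal proteins, of which 45 had opposite signs in the arms, had a lower effect in A2058 in 56 of 79 members and a higher one in 0. The G1/S genes, of which 22 had opposite signs, had a higher effect in 30 of 40 members and a lower one in 0. Cholesterol genes had a lower effect in 16 of 28, and interferon-induced genes a higher one in 17 of 38. The median interferon effect was -0.54 in A2058, -1.51 in A375 and -0.49 in SKMEL2.

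Changes were also set beside short sequences in 3′ UTRs. A hairpin RNA can act on other messages that match its seed, the bases from position 2 to 8 of its guide strand, and such matches lie mostly in 3′ UTRs. The hairpin sequences were not used here, so the 7-mers were ranked by the changes themselves and carry no test. Of 13739 7-mers found in at least 200 of the 10931 3′ UTRs, AAGAGCA and GAAGAGC, which overlap by 6 bases, ranked first and second. The order was by the mean change of the carrying genes minus that of all genes with a 3′ UTR, divided by the SD over those genes and multiplied by the square root of the number of carriers, taking the lower arm. AACCAGA ranked last in KD1 and CAGCTCC last in KD2 on the same score. Genes with GAAGAGC had median changes of 0.19 in KD1 and 0.09 in KD2 (n = 1266), beside 0.07 and -0.04 for all genes with a 3′ UTR. Genes with AACCAGA stood at -0.04 in KD1 and -0.03 in KD2 (n = 1463), and genes with CAGCTCC at 0.09 and -0.19 (n = 1827).

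A share of 29.0% of the 1644 genes with AAGAGCA rose in both arms and 13.5% fell, beside 20.96% and 18.8% of all genes with a 3′ UTR. Their 3′ UTRs were longer, with a median of 3323 bases beside 1349. Carriers of GAAGAGC (3107 bases), AACCAGA (3205) and CAGCTCC (2562) had longer ones too, and length was not separated from the 7-mers. Of all genes with a 3′ UTR, 15.04% hold AAGAGCA, 11.58% GAAGAGC, 13.38% AACCAGA and 16.71% CAGCTCC. The named genes were part of the ranking of 7-mers, so their carriers are no separate test of it. Of the 15 named increases DUSP5, COX7C, IGFBP3, NT5E, MRPS6 and EIF4E2 hold AAGAGCA, and SLC20A1, COX7C, MRPS6 and EIF4E2 hold GAAGAGC. Of the 15 named decreases EFEMP1, GPR3, LDLRAD3 and ADGRA2 hold AACCAGA, and LRATD2, NRN1, GPR3, PDK4, LDLRAD3 and ADGRA2 hold CAGCTCC. None of the 4 was found in SERPIND1, TCN1, PNLIPRP3, COL5A3, AREG, S100A13 and MRGPRX4, which rose, or in CA9, IFIT1, LGALS12, IFIT2, DCT, SDC1 and LARGE2, which fell. The match is partial both ways. Of the genes that fell SNAI2 and ADGRA2 hold AAGAGCA, and PDK4 and ADGRA2 hold GAAGAGC, while MYH15, which rose, holds AACCAGA and CAGCTCC. The part of these sequences in the changes was not tested.

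Sites of AACCAGA and CAGCTCC in MYH15, which rose, and of GAAGAGC in PDK4, which fell, are left out. The sites below are examples, taken from named genes that moved the way their 7-mer was ranked. Each shows the 7-mer in capitals with 10 bases on either side, 5′ to 3′ on the transcript, from GENCODE 44 on GRCh38. The first 3 are in genes that rose and the next 4 in genes that fell.
SLC20A1 (chr2:112663370-112663396, plus strand): tttaaaccatGAAGAGCcgtttgacag
MRPS6 (chr21:34142885-34142911, plus strand): accattttttGAAGAGCaaaacttata
EIF4E2 (chr2:232569116-232569142, plus strand): agaggaattgGAAGAGCattttatgtt
EFEMP1 (chr2:55866399-55866425, minus strand): tcccaaaatgAACCAGAtatcccctag
GPR3 (chr1:27395423-27395449, plus strand): agatcatagaAACCAGAgccttctccc
PDK4 (chr7:95585418-95585444, minus strand): aacagatggcCAGCTCCttatttttta
LDLRAD3 (chr11:36230143-36230169, plus strand): tccaagttctCAGCTCCtaaaatgcag

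**Figure D5:**
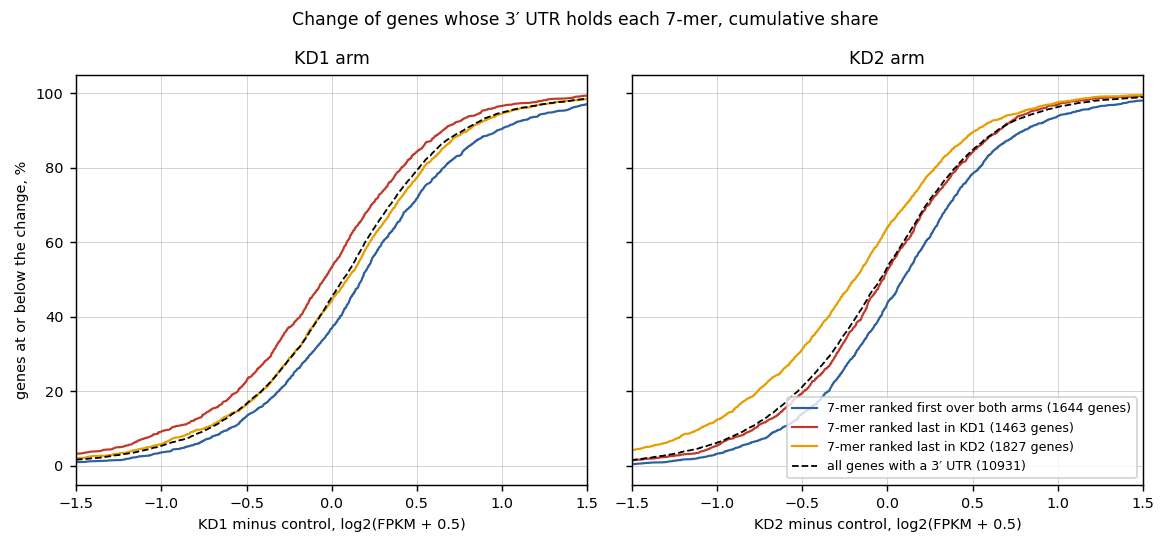
Cumulative share of genes by their change in KD1 (left) and KD2 (right), on the log2(FPKM + 0.5) scale, for genes whose 3′ UTR holds AAGAGCA (blue), AACCAGA (red) or CAGCTCC (yellow) and for all genes with a 3′ UTR (dashed). The medians of AAGAGCA carriers, 0.18 in KD1 and 0.09 in KD2, lie to the right of those of all genes, 0.07 and -0.04.

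The authors' deposited table for A2058 sets the 6 knockdown libraries as 1 group against the 3 control libraries. It lists 5087 genes under its adjusted p of 0.05. Of the 2476 genes that rose in both arms that table calls 2112 higher, and of the 2260 that fell it calls 1704 lower. Of the 1988 genes with opposite signs it calls 0.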

How the data were processed

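RNA-seq libraries of the knockdown and control wells were made and processed by the authors, and their deposited FPKM per gene is the unit used here. Per the submitters' processing notes, reads were handled with Trimmomatic (0.39), STAR (2.7.3a) and Subread (2.0.0, featureCounts) on GRCh38, and FastQC (0.11.9), MultiQC (1.9) and DESeq2 (1.28.1) are named too. The deposited base mean, a signal the authors normalized over all 27 libraries of the series, was used to recover reads from the FPKM. Those reads gave the depths, the mitochondrial read shares, the check of agreement between libraries and the limma-voom run. The deposited log2 fold change with its p-value comes from the authors' own table for A2058 and was used only where it is named. Whether counting used strand is not stated by the labels or file headers, so overlapping genes may share reads.

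Gene positions came from GENCODE 44, whereas the files follow release 34, and 25905 IDs (99.6%) matched. FPKM is a multiple of what 1 read gives for a gene, and 100% of values came out as whole reads within 0.05, which gave the depths. No pair of libraries of an arm agreed within sampling noise, with chi-square per gene of 5.01 to 8.87.

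Tests were run by limma (3.58.1, under R 4.3.3) with a variance trend on log2(FPKM + 0.5), over the 3 groups of A2058, two-sided, with Benjamini-Hochberg adjustment over all genes tested. The comparison with A375 and SKMEL2 used all 9 groups. The steps were tested on simulated data. Named genes are the 15 each way with the largest smaller-arm change among protein-coding genes whose knockdown and control libraries do not overlap and whose mean FPKM reaches 2, up to 6 per list, 4 with opposite signs and 6 each way against the other lines. The members and lists were chosen with earlier results of these data known. Alternatives were other pseudocounts, filters and normalizations, limma-voom on the recovered reads, a replicate block and leaving out each library. Promoters are the 250 bases before and 50 after each RefSeq start. Other lists were searched on either strand too. The sterol element (TCACNCCAC) was in 1 of 22 cholesterol promoters (all promoters 1.15%). The ATF4 element (TGATGNAA) was in 4 of 23 (3.67%) and the antioxidant element (TGACNNNGC) in 5 of 20 NRF2 promoters (13.6%). The heat shock dimer (TTCNNGAA) was in 5 of 25 (7.84%). The CLEAR element (GTCACGTG) was in 3 of 13 V-ATPase and 5 of 29 lysosomal promoters (2.53%).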

Additional observations from a re-analysis of the deposited data

Results flagged for a closer look

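For 12 named genes the effect of knockdown in A2058 differed from the mean effect in A375 and SKMEL2, tested as an interaction in the limma fit over 27 libraries. The genes were the 6 with the smallest adjusted p in each direction among those that rose or fell in both A2058 arms. The A2058 effect was above that of the other lines by 2.40 for EGR3, 2.10 for TIMP1, 1.86 for TCN1, 1.302 for CDKN2B, 1.21 for SLC20A1 and 1.19 for GPAT3, in log2 units. The difference, A2058 minus the other lines, was -2.39 for NRN1, -1.76 for MAPK4, -1.71 for PRSS56, -1.66 for MT2A, -1.56 for ASB4 and -1.35 for PTGIS. EGR3, TIMP1, GPAT3, NRN1 and MAPK4 had effects of opposite sign in A2058 and A375. PTGIS, ASB4 and PRSS56 had mean FPKM near 0 in both other lines, and CDKN2B was listed at 0 in every A375 library. For PTGIS, ASB4 and PRSS56 the difference is close to the A2058 effect alone.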

How the results depend on the processing

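With a filter at an FPKM of 5, which tests fewer genes, 2338 genes fell in KD1, 3102 in KD2 and 1365 in both. All other counts by arm stayed within 1.5 times under the alternatives run. Limma-voom on recovered reads gave 2135 rising and 2852 falling genes in both arms, and 4296 rising and 4970 falling in KD1. More genes thus fell than rose there, the reverse of the main fit, so that balance depends on the processing. Leaving out 1 library gave 2304 to 2429 rising and 2032 to 2219 falling in both arms, 4633 to 4975 rising and 3807 to 4093 falling in KD1, and 3973 to 4219 rising and 4482 to 4744 falling in KD2. Same-numbered libraries did not deviate together, with correlations of -0.065 to 0.06, so the numbers do not pair them. With the replicate block 2417 genes rose and 2193 fell in both arms. Changes of named genes kept direction and call in 1176 of 1176 values, and the effects against other lines in 52 of 52. List counts moved in 100 of 1938 values, list medians in 236 of 1938 and motif shares in 10 of 26. FPKM without strand limits overlapping genes, and within an arm an effect of the hairpin on other messages and the effect of losing SIRT5 cannot be told apart. An effect of the control hairpin on other messages would move both arms the same way. It cannot be told apart from a shared response to the loss of SIRT5 either, and was not tested.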
